A study of Homo sapiens with 4 samples.

Results

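The feedback genes of the ERK pathway were measured by RNA sequencing in Hey-A8, an established human ovarian cancer cell line. The members were taken by name from the deposited count table and not by a cut on their values, though with earlier results of these data known. They are 10 of its 58735 genes, namely DUSP4, DUSP5, DUSP6, SPRY1, SPRY2, SPRY4, SPRED1, SPRED2, ETV4 and ETV5, and all 10 entered the test. Libraries of total RNA came from 2 groups, shSPTLC2 (cells labelled as an SPTLC2 knockdown, 2 libraries) and shCON (cells with a negative control hairpin, 2 libraries). Both groups are the same line in the same serum-containing medium, and the labels name no other allele or agent. The labels disagree on the hairpin cells: the design text describes stable SPTLC2 knockdown, whereas the treatment protocol describes transient transfection of hairpin plasmids against ZDHHC15 and harvest at 36 h. The sources used here give no hairpin sequence and no number of hairpins or clones. Nothing in the labels says that the libraries of a group are separate cultures, so p-values measure only the spread between these libraries.

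ERK, the last kinase of the RAS, RAF and MEK cascade, switches on genes whose products act back on the same cascade. Dual-specificity phosphatases (DUSP) remove the activating phosphates from ERK, Sprouty and SPRED proteins limit the activation of RAS and RAF below growth factor receptors, and the ETS factors ETV4 and ETV5 carry the signal on to transcription. Transcripts of these genes are widely used as a readout of ERK output in tumour cells. RNA levels alone do not measure the phosphorylation of ERK.

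The libraries held 14464784 to 15084966 counts. SPTLC2, a catalytic subunit of the enzyme that begins sphingolipid synthesis, had 587 and 662 counts in the shSPTLC2 libraries, against 871 and 884 in the shCON libraries (log2 fold change -0.52 ± 0.12, SE; adjusted p = 0.0063 in edgeR). Leaving out shSPTLC2 replicate 1 or replicate 2 ended that call, at an adjusted p of 0.134 for the first and 0.0519 for the second. No library had a count of ZDHHC15 (0 of the total), so levels up to 0.204 and 0.195 CPM (counts scaled to library size) in shSPTLC2 and 0.202 and 0.206 CPM in shCON remain possible; such limits cover counting error only. Epithelial markers of this tissue were read in part: PAX8, KRT7, KRT8 and KRT18 were well expressed, MUC16 and EPCAM were near 0 and CDH1 had no count. WT1 was low, at 6.44 to 10.4 CPM over the libraries, and KRT19 lower, at 1.22 to 1.55 CPM. PAX8 was called higher in shSPTLC2 (log2 fold change 0.73, adjusted p = 4.4e-04 in edgeR). Summed over the 9 epithelial markers, the level was 2831 to 2870 CPM in shSPTLC2 and 2514 to 2606 CPM in shCON. The 4 mesenchymal markers VIM, CDH2, FN1 and ZEB1 summed to more, 5768 to 6130 CPM in shSPTLC2 and 6176 to 6534 CPM in shCON, and none was called. The 5 leukocyte markers summed to at most 0.650 CPM in shSPTLC2 and 1.03 CPM in shCON. The 5 fibroblast markers summed to 5.53 to 7.06 CPM in shSPTLC2 and 1.95 to 2.81 CPM in shCON, with DCN and LUM at 0. COL1A1, the only fibroblast marker tested, was called higher in shSPTLC2 (log2 fold change 1.52, adjusted p = 0.0029 in edgeR). The 3 endothelial markers summed to 109.5 to 131.7 CPM in shSPTLC2 and 58.4 to 60.1 CPM in shCON, nearly all of it CDH5, at 108.4 and 130.0 CPM in shSPTLC2 and 57.1 and 55.1 CPM in shCON. The other members, both scarce, had the opposite sign: PECAM1 fell to 0.407 and 0.780 CPM in shSPTLC2, against 2.09 and 1.85 CPM in shCON (log2 fold change -1.71, adjusted p = 0.018 in edgeR), and VWF was not called (-0.61, adjusted p = 0.40 in edgeR). The part of these markers in the results was not tested. In this bulk RNA, fewer cells of a type and less RNA per cell cannot be told apart. Genes of the mitochondrial genome took 10.1% and 8.56% of counts in the shSPTLC2 libraries, against 5.46% and 6.39% in the shCON libraries. With those genes left out, 1 feedback gene was called higher and 3 lower, as many as with them.

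Among the 10 feedback genes, DUSP4 rose in shSPTLC2 cells, DUSP6, SPRY2 and SPRY4 fell, and the other 6 were not called. A gene was called at a Benjamini-Hochberg adjusted p under 0.05 in edgeR's quasi-likelihood test over 15313 genes. The 1 feedback gene called higher stands against a background of 10.4% of all tested genes called higher. The 3 called lower stand against 9.00% called lower, and 19.4% of tested genes were called in either direction. The median log2 fold change was -0.14 over the 10 genes and 0.005 over all tested genes. In 8 of the 10 genes every shSPTLC2 library lay on one side of both shCON libraries, 3 of them with shSPTLC2 higher and 5 with shSPTLC2 lower; over all tested genes this held for 61.5%, 31.3% with shSPTLC2 higher and 30.2% lower. None (0) of the 4 called genes was called in every fit that left out 1 library. On deposited FPKM, where limma tested 9 of the 10 feedback genes, it called 0 at an adjusted p under 0.05, and 5 had an unadjusted p under 0.05 (1 higher, 4 lower). Leaving out shSPTLC2 replicate 1 left 1 feedback gene called, DUSP4, and leaving out shSPTLC2 replicate 2 left 1, DUSP6. Leaving out shCON replicate 2 raised the number called lower to 5, with DUSP5 and SPRED1 added.

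**Figure D1:**
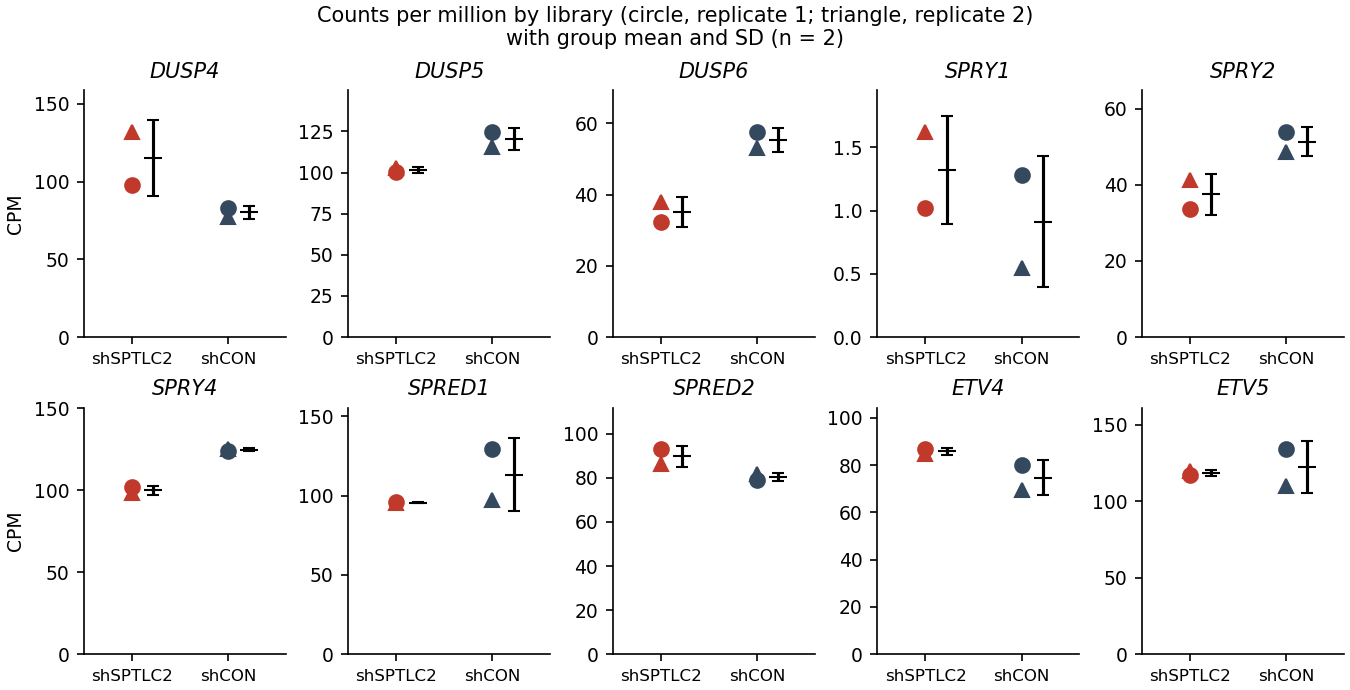
CPM (counts scaled to library size, linear axis from 0) of each feedback gene in the 2 shSPTLC2 libraries (red) and the 2 shCON libraries (dark blue); circles are replicate 1, triangles replicate 2, and black bars the group mean with SD. DUSP4 lies higher in both shSPTLC2 libraries, DUSP6, SPRY2 and SPRY4 lie lower in both, and SPRY1 and ETV5 overlap between groups.

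The promoters of SPRY2 and SPRY4 are shown because both Sprouty genes were called lower. RefSeq start sites (GRCh38.p14) were found for 6 of the 10 genes, DUSP6, SPRY1, SPRY2, SPRY4, SPRED1 and SPRED2. Each sequence below is the 250 bases before a start site, on the gene's own minus strand, read 5′ to 3′. Capitals mark matches, on either strand, to CCGGAA, the core bound by ETS factors, and TGACG, the shorter form of the cyclic AMP response element. For SPRY2, the most upstream of its 3 listed start sites is used; the windows of the other 2 held none of the motifs searched.
SPRY2, chr13:80341127-80341376: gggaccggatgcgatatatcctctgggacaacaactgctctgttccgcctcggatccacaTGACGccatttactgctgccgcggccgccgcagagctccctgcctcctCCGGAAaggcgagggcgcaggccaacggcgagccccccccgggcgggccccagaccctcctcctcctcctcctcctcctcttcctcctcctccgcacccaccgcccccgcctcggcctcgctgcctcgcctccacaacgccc
SPRY4, chr5:142324248-142324497: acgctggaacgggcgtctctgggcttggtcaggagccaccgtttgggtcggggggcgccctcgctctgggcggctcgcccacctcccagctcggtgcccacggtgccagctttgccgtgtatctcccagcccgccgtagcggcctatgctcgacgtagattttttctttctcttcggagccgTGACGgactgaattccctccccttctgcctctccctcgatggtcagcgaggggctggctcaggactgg
TGACG was present in both windows shown, and in 21.2% of 35116 RefSeq windows of the same length. CCGGAA was present in the SPRY2 window shown and in 14.5% of all windows. It was also in a window of SPRY1, a gene not called (chr4:123398136-123398385, at -67). The AP-1 motif TGACTCA (4.2% of all windows) and the octamers TGAATGAA (1.4%) and TGAATGGA (0.832%) of the repressor CIC were in neither. These are letter matches with no measurement of binding. The windows of SPRED1 and SPRED2 and the other SPRY1 window held none of the 5 motifs. The window of DUSP6, which was also called lower, held none of them either. It lies at chr12:89352502-89352751 and overlaps an annotated GENCODE 29 exon of DUSP6. The SPRY4 window lies inside the annotated span of SPRY4 and overlaps a SPRY4 exon, and the SPRY2 window shown overlaps no SPRY2 exon. Windows of SPRED1, SPRED2 and SPRY1 also overlap exons of their genes.

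The 3 phosphatase genes did not move together. DUSP6 encodes a cytoplasmic phosphatase specific for ERK, and it lies on chromosome 12 at 89347232 to 89353271 (hg38, minus strand). It had 474 and 585 counts in shSPTLC2, against 857 and 774 in shCON. In CPM these were 32.2 and 38.0 in shSPTLC2 and 57.7 and 53.0 in shCON, so that both shSPTLC2 libraries were below both shCON libraries. DUSP6 fell by 0.66 ± 0.13 on the log2 scale (SE; adjusted p = 0.0026 in edgeR), the smallest adjusted p of the 10 genes. The call was lost without shSPTLC2 replicate 1, the lower library of its group, where the log2 fold change was -0.54 (adjusted p = 0.0963; 4.3e-06 to 0.0963 over the alternatives). An antisense gene, AC024909.2, overlaps DUSP6 with 5 to 8 counts per library.

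DUSP4 encodes a nuclear phosphatase that acts on ERK and on the stress kinases JNK and p38, and it lies on chromosome 8 at 29333064 to 29350668 (minus strand). Its counts were 1442 and 2034 in shSPTLC2 and 1238 and 1125 in shCON. The CPM were 97.9 and 132.3 in shSPTLC2, against 83.3 and 77.1 in shCON. The groups did not overlap, and shSPTLC2 replicate 2 stood well above replicate 1. Group means were 115.1 ± 24.3 CPM in shSPTLC2 and 80.2 ± 4.43 CPM in shCON (SD, n = 2 each). DUSP4 rose by a log2 fold change of 0.52 ± 0.13 (SE; adjusted p = 0.014 in edgeR). Without shSPTLC2 replicate 2 it was 0.29 (adjusted p = 0.298; 3.7e-05 to 0.298 over the alternatives) and no longer called.

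DUSP5, a nuclear phosphatase specific for ERK on chromosome 10 (110497838 to 110511544), was not called. It had 100.3 and 103.1 CPM in shSPTLC2, against 124.9 and 115.4 CPM in shCON, without overlap. The log2 fold change was -0.24 ± 0.11 (SE; 95% interval -0.47 to -0.02; adjusted p = 0.124 in edgeR). Without shCON replicate 2 it was called, at -0.30 (adjusted p = 0.0426).

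Because DUSP4 and DUSP6 changed in opposite directions, their counts were set against each other within each library, which needs no scaling between libraries. The pair was chosen after the values were seen. The DUSP4 count was 3.04 and 3.48 times the DUSP6 count in the shSPTLC2 libraries, against 1.44 and 1.45 times in the shCON libraries. The ratio of geometric means, shSPTLC2 over shCON, was 2.24. With 2 libraries a group an exact two-sided permutation test cannot give a p below 0.333, so no test is given. Per length, DUSP4 held 22.9% and 27.7% of the summed FPKM (reads scaled to gene length and library size) of the 3 phosphatase genes in shSPTLC2, and 16.0% in each shCON library. DUSP6 held 11.8% and 12.5% in shSPTLC2, against 17.4% and 17.3% in shCON. DUSP5 held the most in every library, 65.2% and 59.9% in shSPTLC2 and 66.6% and 66.7% in shCON.

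**Figure D2:**
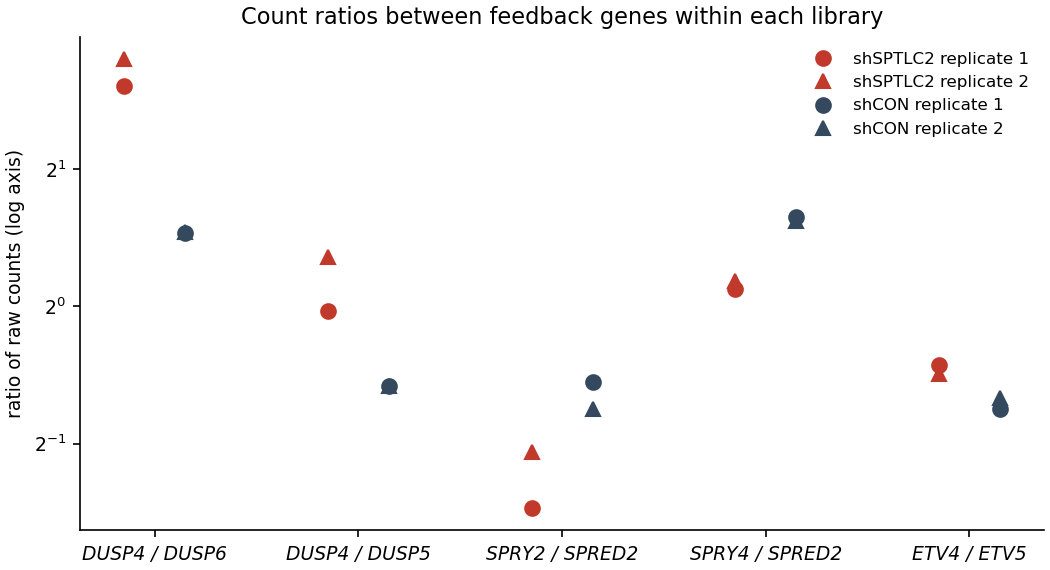
Ratio of raw counts (log axis) between pairs of feedback genes within each library; red symbols are shSPTLC2 and dark blue symbols shCON, circles replicate 1 and triangles replicate 2. The DUSP4 to DUSP6 ratio is 3.04 and 3.48 in shSPTLC2 and 1.44 and 1.45 in shCON. The ETV4 to ETV5 ratio differs less, at 0.744 and 0.709 in shSPTLC2 and 0.594 and 0.630 in shCON, also without overlap.

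SPRY2 and SPRY4 fell, and SPRY1 was too scarce to read. SPRY2 encodes a membrane-associated inhibitor of receptor tyrosine kinase signalling and lies on chromosome 13 at 80335976 to 80340951 (minus strand). It had 497 and 636 counts in shSPTLC2, against 803 and 711 in shCON. These were 33.7 and 41.4 CPM in shSPTLC2, against 54.1 and 48.7 CPM in shCON, without overlap. SPRY2 fell by 0.45 ± 0.13 on the log2 scale (SE; adjusted p = 0.025 in edgeR). Leaving out shSPTLC2 replicate 1 gave -0.31 at an adjusted p of 0.331, and leaving out replicate 2 of that group gave an adjusted p of 0.0502, so neither kept the call (0.0013 to 0.331 over the alternatives).

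SPRY4, which encodes another Sprouty inhibitor of receptor signalling, lies on chromosome 5 at 142310427 to 142326455 (minus strand). It had 1500 and 1508 counts in shSPTLC2, against 1845 and 1830 in shCON. The CPM were 101.8 and 98.0 in shSPTLC2 and 124.2 and 125.4 in shCON, with libraries of a group close together. SPRY4 fell by 0.32 ± 0.10 on the log2 scale (SE; adjusted p = 0.041 in edgeR). This call ended in DESeq2 (adjusted p = 0.0529), with library totals in place of TMM scaling (-0.27, adjusted p = 0.0946), and without shSPTLC2 replicate 1 (0.225) or shSPTLC2 replicate 2 (0.278). Over the alternatives the adjusted p of SPRY4 was 0.0122 to 0.278. Short genes and SPRY4-AS1 overlap it with 5 to 30 counts each.

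SPRY1, the third Sprouty gene here, was close to the limit of detection. It had 15 and 25 counts in shSPTLC2, against 19 and 8 in shCON, and the groups overlapped. The log2 fold change was 0.53 ± 0.50 (SE; 95% interval -0.53 to 1.59; adjusted p = 0.49 in edgeR), so no change was detectable at this depth. SPRY1 held at most 1.42% of the summed FPKM of the 3 Sprouty genes in any library.

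**Figure D3:**
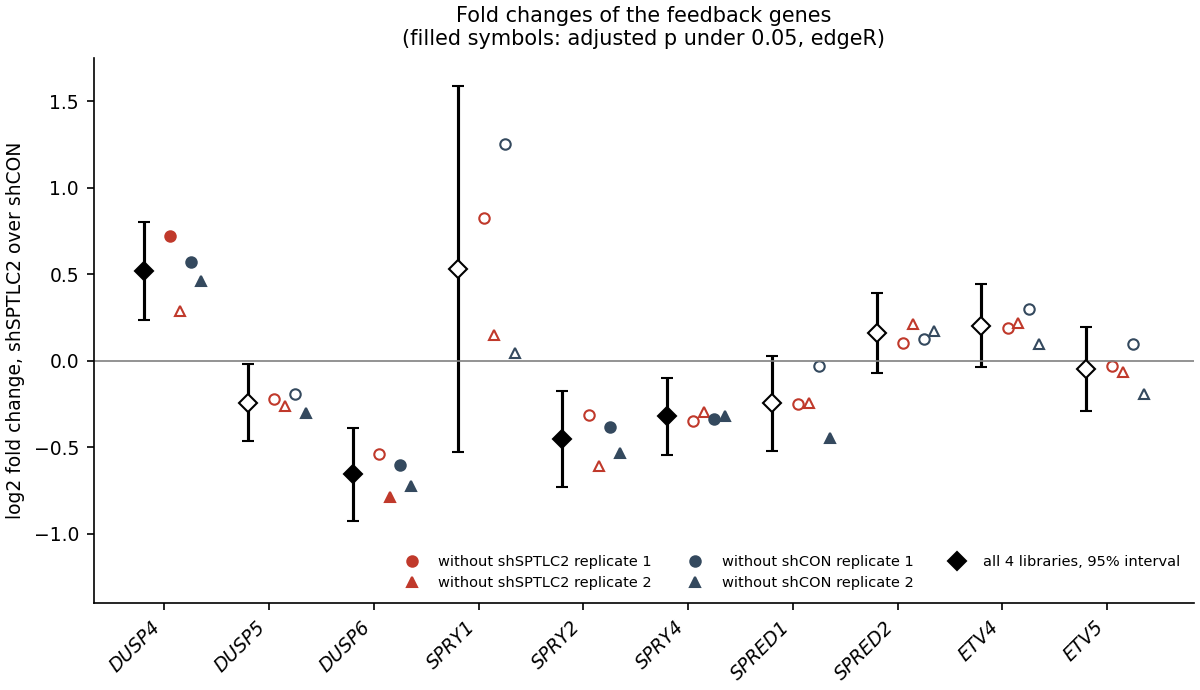
Log2 fold change, shSPTLC2 over shCON, of each feedback gene with all 4 libraries (diamonds, with 95% intervals) and with 1 library left out (red, an shSPTLC2 library left out; dark blue, an shCON library left out); filled symbols had an adjusted p under 0.05. DUSP6, SPRY2 and SPRY4 stay below 0 and DUSP4 above 0 in these fits, while several symbols lose their fill when an shSPTLC2 library is left out.

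SPRED1 and SPRED2, which bring the RAS inactivator neurofibromin to the membrane, were not called. SPRED1 (chromosome 15, 38252326 to 38357249) had 95.8 and 95.3 CPM in shSPTLC2, against 129.6 and 97.0 CPM in shCON. The difference rested on shCON replicate 1, the highest library. The log2 fold change of SPRED1, -0.25 ± 0.13 (SE; adjusted p = 0.194 in edgeR), was not called; it was -0.03 (adjusted p = 0.885) without shCON replicate 1 and -0.45 (adjusted p = 0.0012) without shCON replicate 2. SPRED2 (chromosome 2, 65310851 to 65432637) had 93.2 and 86.3 CPM in shSPTLC2, against 79.2 and 81.7 CPM in shCON. For SPRED2 the log2 fold change was 0.16 ± 0.11 (SE; 95% interval -0.07 to 0.39; adjusted p = 0.333 in edgeR).

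ETV4 and ETV5, transcription factors of the PEA3 group of the ETS family, were not called either. ETV4 (chromosome 17, 43527844 to 43579620) had 86.9 and 84.9 CPM in shSPTLC2, against 79.8 and 69.3 CPM in shCON, a log2 fold change of 0.20 ± 0.11 (SE; 95% interval -0.04 to 0.45; adjusted p = 0.225 in edgeR). Its transcripts had the highest GC content of the 10 genes, 60.5%, and the value was 0.05 after a GC-content correction. The gene DHX8, with 976 to 1633 counts, overlaps ETV4 on the other strand, and without a stated strand setting their reads cannot be told apart. ETV5 (chromosome 3, 186046308 to 186110318) had 116.8 and 119.7 CPM in shSPTLC2, between the 134.3 and 110.1 CPM of the shCON libraries. Its log2 fold change was -0.05 ± 0.12 (SE; 95% interval -0.29 to 0.20; adjusted p = 0.81 in edgeR), and its sign turned with library totals (0.01) and without shCON replicate 1 (0.09).

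Levels of different genes were compared per length, as deposited FPKM. DUSP5 was highest in both groups, at 38.6 ± 0.849 FPKM in shSPTLC2 and 45.9 ± 2.85 FPKM in shCON (SD, n = 2 each). SPRY1 was lowest, at 0.331 ± 0.109 FPKM in shSPTLC2 and 0.231 ± 0.132 FPKM in shCON. The other 8 genes lay between 7.52 and 23.6 FPKM (group means) in shSPTLC2 and between 11.0 and 21.0 FPKM in shCON. DUSP4 ranked 5 in shSPTLC2, at 15.7 ± 3.37 FPKM, and 9 in shCON, at 11.0 ± 0.678 FPKM. Neighbours whose libraries overlapped in level were SPRED2 with DUSP4, DUSP4 with SPRY4, and SPRY2 with SPRED1 in shSPTLC2. In shCON they were ETV5 with ETV4, SPRED2 with SPRED1, SPRED1 with DUSP6, and DUSP6 with DUSP4.

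**Figure D4:**
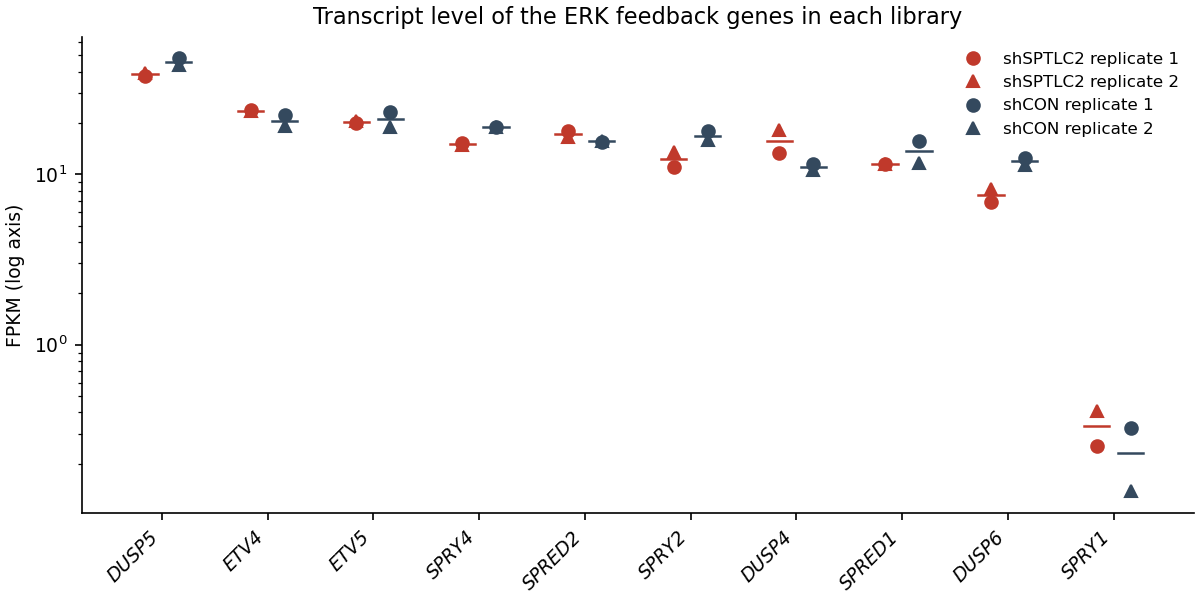
FPKM (log axis) of the 10 feedback genes in each library, ordered by the mean over all 4 libraries; red symbols are shSPTLC2, dark blue symbols shCON, circles replicate 1, triangles replicate 2, and short lines group means. DUSP5 is highest, SPRY1 lies far below the rest, and the 8 others fall between 6.88 and 23.9 FPKM in all libraries.

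Over the 4 libraries, the centred log2 CPM of DUSP6 was nearest, among the feedback genes, to that of SPRY2 (Euclidean distance 0.206). DUSP5 and SPRY4 were each other's nearest (0.138), as were SPRED2 and ETV4 (0.19) and SPRED1 and ETV5 (0.214). Among 10843 tested genes that averaged 5 CPM or more, the 3 nearest to DUSP6 were FUT8-AS1 (0.0375), TIPARP (0.0419) and HTATSF1 (0.0443). With 4 libraries such distances mostly follow the difference between groups.

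Other genes of the same pathway were read from the same fit. Of 10 further members of these families, 8 were tested; DUSP7, a cytoplasmic ERK phosphatase, rose (0.39 ± 0.11, SE; adjusted p = 0.024), DUSP10, a phosphatase of p38 and JNK, fell (-0.45 ± 0.14; adjusted p = 0.028), and 6 were not called. Calls made up 25% of the tested genes of this list, against 19.4% of all tested genes. DUSP7 had 90.1 and 84.9 CPM in shSPTLC2, against 69.1 and 64.9 CPM in shCON. DUSP10 had 21.0 and 21.4 CPM in shSPTLC2, against 27.1 and 31.0 CPM in shCON. DUSP1, the most abundant of them, had 209.2 and 256.2 CPM in shSPTLC2, against 265.5 and 218.2 CPM in shCON, with overlap (log2 fold change -0.06 ± 0.12; adjusted p = 0.79 in edgeR). DUSP2 and DUSP9 had 0 counts in every library. Both calls ended without either shSPTLC2 library, when 0 of these genes were called, the DUSP7 call also ended after GC-content correction, and the DUSP10 call in DESeq2 and without shCON replicate 2.

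Of 17 kinases and adaptors of the cascade itself, 1 rose, HRAS, and 1 fell, PTPN11, the phosphatase SHP2 that promotes RAS activation; 15 were not called. That is 11.8% called, against 19.4% of all tested genes. HRAS had 82.7 and 77.4 CPM in shSPTLC2, against 67.2 and 56.7 CPM in shCON (0.37 ± 0.12, SE; adjusted p = 0.040 in edgeR). PTPN11 had 228.9 and 251.3 CPM in shSPTLC2, against 309.3 and 303.0 CPM in shCON (-0.35 ± 0.10; adjusted p = 0.029 in edgeR). The MEK2 gene MAP2K2 (0.35 ± 0.13) and the adaptor gene SHC1 (0.29 ± 0.10), which had the highest FPKM of the list, missed the threshold, each at an adjusted p of 0.059. MAP2K2 was called in 5 of the 16 alternatives and SHC1 in 3, both with library totals and with a mean of at least 5 CPM, where 4 cascade genes were called higher. MAP2K2 rested on 1 control library, at 0.56 (adjusted p = 8.6e-06) without shCON replicate 1 and 0.16 (adjusted p = 0.317) without shCON replicate 2, and was 0.13 after GC-content correction. With 1 library left out the cascade counts moved both ways: 0 genes were called without either shSPTLC2 library, 3 higher and 1 lower without shCON replicate 1, and 1 higher and 3 lower without shCON replicate 2. The HRAS call also ended after GC-content correction, in DESeq2 and without shCON replicate 2. The PTPN11 call also ended with library totals, and with the replicate block and GC-content correction together. On deposited FPKM with limma neither gene was called.

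Negative regulators outside the 10 genes went both ways: of 9 tested, 3 rose, 1 fell and 5 were not called. In this list, chosen with earlier results known, 44.4% were called, against 19.4% of all tested genes (10.4% higher, 9.00% lower). ERRFI1, an inhibitor of the EGF receptor kinase, had 76.8 and 87.5 CPM in shSPTLC2, against 164.9 and 164.8 CPM in shCON, and fell by 1.00 ± 0.11 on the log2 scale (adjusted p = 3.7e-05 in edgeR). It was called in all 16 alternatives. LZTR1, part of a ubiquitin ligase for RAS proteins, rose by 0.60 ± 0.14, RASA2, a RAS GTPase activator, by 0.55 ± 0.14, and the ubiquitin ligase gene CBLB by 0.69 ± 0.19 (adjusted p = 0.0081, 0.011 and 0.018 in edgeR). These 3 calls ended when either shSPTLC2 library was left out, and that of CBLB also without shCON replicate 2. PEBP1, an inhibitor of the cascade, had a log2 fold change of -0.01 ± 0.11.

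Of 10 other ERK-driven genes, a list chosen with earlier results known, 0 rose, 5 fell and 5 were not called, against 9.00% of all tested genes called lower (10 of 10 had shSPTLC2 below shCON without overlap, against 30.2% of all tested genes), and their median log2 fold change was -0.69. HBEGF, a ligand of the EGF receptor, had 43.2 and 46.6 CPM in shSPTLC2, against 133.8 and 138.9 CPM in shCON (-1.60 ± 0.11, SE; adjusted p = 1.0e-06 in edgeR). MYC had 363.7 and 372.7 CPM in shSPTLC2, against 672.6 and 596.0 CPM in shCON (-0.78 ± 0.11; adjusted p = 2.8e-04). PHLDA1, EPHA4 and FOS fell by 0.59 ± 0.11, 1.04 ± 0.22 and 1.47 ± 0.32 on the log2 scale (adjusted p = 0.0021, 0.0049 and 0.0049 in edgeR). FOS was scarce, at 1.36 and 1.50 CPM in shSPTLC2 and 3.97 CPM in each shCON library. FOSL1, the most abundant of the list per length, was not called (-0.15 ± 0.11; adjusted p = 0.37 in edgeR). Without shSPTLC2 replicate 1 only HBEGF and MYC were called, while 9 genes were called lower without shCON replicate 2 and 8 after GC-content correction. All 10 log2 fold changes of the list were negative, so that 0 were higher at an unadjusted p under 0.05.

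Among 11 factors that act on these genes' promoters or on ETS proteins, 1 rose, 3 fell and 7 were not called. This list too was chosen with earlier results known, and 36.4% of it was called, against 19.4% of all tested genes (10.4% higher, 9.00% lower). ERF, an ETS repressor that ERK expels from the nucleus, had 65.0 and 64.2 CPM in shSPTLC2, against 40.2 and 37.4 CPM in shCON (0.74 ± 0.12, SE; adjusted p = 6.8e-04 in edgeR). It was called in all 16 alternatives. ETS1, an activator phosphorylated by ERK, had 549.4 and 610.4 CPM in shSPTLC2, against 845.4 and 907.5 CPM in shCON (-0.60 ± 0.11; adjusted p = 0.0021). ETS2 fell by 0.46 ± 0.11 and ATXN1L, a partner of the repressor CIC, by 0.53 ± 0.13 on the log2 scale (adjusted p = 0.0091 and 0.0093 in edgeR). CIC itself was not called (0.14 ± 0.11). Without shSPTLC2 replicate 1, 0 of the 3 falls were called, and without shSPTLC2 replicate 2 only ETS1 was. Without shCON replicate 2, 5 genes of the list were called lower. ELK3, a ternary complex factor, had a log2 fold change of -0.26 ± 0.12 (adjusted p = 0.13 in edgeR), with -0.11 (adjusted p = 0.473) without shCON replicate 1 and -0.41 (adjusted p = 0.0013, called) without shCON replicate 2.

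**Figure D5:**
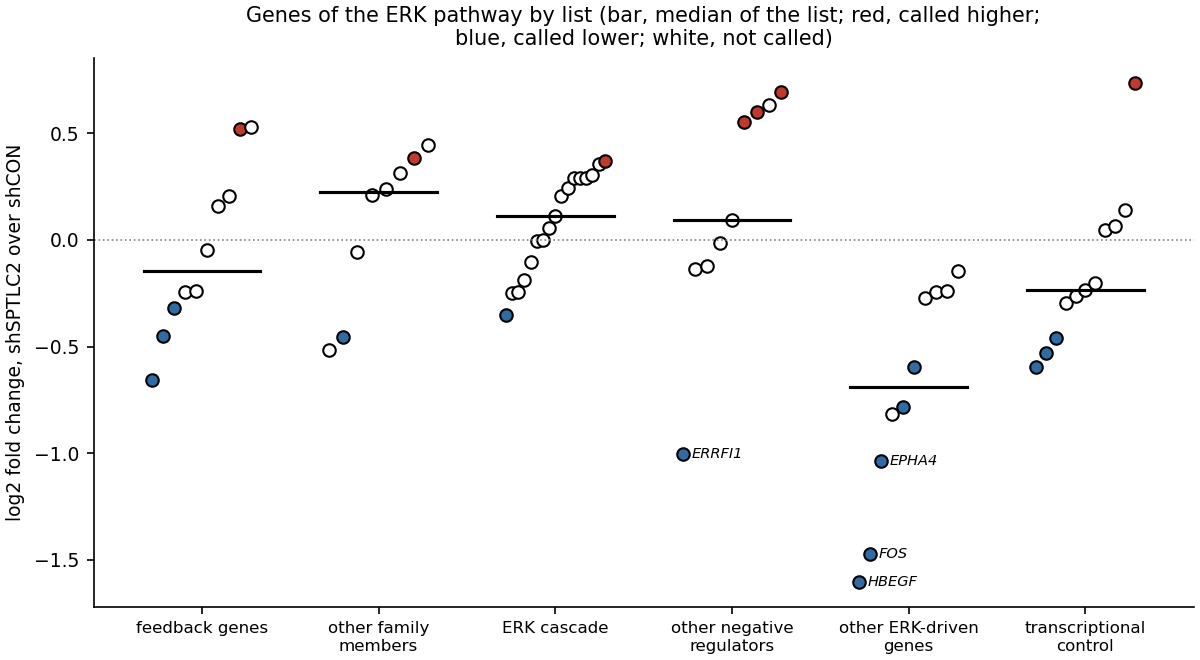
Log2 fold change, shSPTLC2 over shCON, of every tested gene in the feedback set and in 5 further lists of the ERK pathway; red circles were called higher, blue circles called lower and white circles not called, and black lines are list medians. The feedback genes spread to both sides of 0, from -0.66 to 0.53, whereas the 10 other ERK-driven genes all lie below 0. Genes of all lists were chosen with earlier results of these data known.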

How the data were processed

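Counts were deposited by the authors as raw read counts per Ensembl gene. FPKM were deposited by the authors and, within a library, equal the count divided by the deposited gene length and a constant. The submitters' processing notes name HISAT2, StringTie, SAMtools and hg38 without versions, and the sources used here do not say how reads were counted or whether strand was used. Members and gene lists were chosen with earlier results of these data known. In each list the text names up to 4 called genes with the smallest adjusted p, the 2 with the highest mean FPKM, and every called gene where 5 or fewer were called; CIC, DUSP2 and DUSP9 were named after their values were seen. Counts were tested in R 4.3.3 with edgeR 4.0.16 (filterByExpr, minimum count 10 and total 15; TMM; robust quasi-likelihood F test, two-sided, no covariates), with Benjamini-Hochberg adjustment over 15313 genes. CPM use TMM-scaled library totals, and SE was obtained by dividing the size of the log2 fold change by the root of F. The alternatives were other scalings and filters, DESeq2 1.42.0, limma 3.58.1 (voom, and log2 of FPKM plus 1 for genes with a mean of at least 0.5), GC-content correction (GC content of GENCODE 29 transcripts, found for 15308 genes), a replicate block, and each library left out; leaving out the mitochondrial genes was added after seeing the data. With 1 library left in a group, that library is assumed to vary like the other group. Within groups, 28.7% (shSPTLC2) and 37.4% (shCON) of genes with at least 20 counts in the pair differed between libraries (chi-square p under 0.05). Libraries were kept as separate samples, but this check cannot tell whether they came from separate cultures. The scripts were tested on simulated counts of 15005 genes with known changes. At an adjusted p under 0.05 in edgeR, 25 of 164 calls were false, a larger share than the threshold aims at. The simulation changed 200 genes, whereas 2971 were called in the data, so its share of false calls need not carry over. Changes of 1.5-fold were recovered in 51.5% of cases, 2-fold in 68.8% and 4-fold in 95.3%.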

Additional observations from a re-analysis of the deposited data

How the results depend on the processing

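SPRY1 had 8 to 25 counts a library, and 2 libraries a group limit every call. The numbers of feedback genes called, 1 higher and 3 lower, held with DESeq2 size factors in edgeR, upper quartile scaling, either filter, limma voom, GC-content correction, the replicate block and without mitochondrial genes; DESeq2 and library totals gave 1 and 2. On deposited FPKM, limma called 0 higher and 0 lower, with 1 and 4 at an unadjusted p under 0.05, and 417 of 15018 genes in all (238 higher, 179 lower), against 2971 in edgeR (1593 and 1378). Leaving out 1 library gave 0 to 1 feedback genes higher, 0 to 5 lower, and 640 to 4027 genes in all (413 to 1977 higher, 227 to 2050 lower). Without shSPTLC2 replicate 1, where edgeR called 0 feedback genes lower, 2 had an unadjusted p under 0.05; without shSPTLC2 replicate 2, where it called 0 higher, 0 did. With library totals 1927 genes were higher and 1032 lower; with GC-content correction 1339 and 1687. The replicate numbers share no stated day or culture, and same-numbered libraries deviated with a correlation of -0.013; with the replicate block 3307 genes were called, among them 1 feedback gene higher and 3 lower. With both the replicate block and GC-content correction the numbers were 3331, 1 and 3. Uncalled genes that turned sign were ETV5 (0.0064 with library totals; -0.19 to 0.095 with 1 library left out), PEBP1 (0.042 with library totals and 0.0039 with a mean of at least 5 CPM; -0.13 to 0.10 with 1 library left out) and DUSP1 (-0.21 to 0.085 with 1 library left out). The cause of these shifts was not tested.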
